A study of Homo sapiens with 18 samples.

Results

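The response of 22Rv1 cells to knockdown of EMD, the gene of the nuclear envelope protein emerin, was measured by RNA sequencing in 6 of the 18 libraries of the series. 22Rv1 is an established human prostate carcinoma cell line that came from a xenograft which had relapsed after castration. The knockdown group was 3 libraries of 22Rv1 cells that received siRNA against EMD, and the control group was 3 libraries of 22Rv1 cells that received a scrambled siRNA with the same lipid reagent. In both groups the transfection mix was replaced by fresh medium after 24 h, and the time from then to harvest was not given in the sources used here. The other 12 libraries are EMD knockdown and control libraries of C4-2B and DU145 prostate cancer cells, and they enter only the comparison between lines. All genes that passed a filter on low counts were taken, which were 16656 of the 25716 genes in the table of this line.

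Emerin is anchored in the inner membrane of the nuclear envelope, where it contacts lamins and, through its LEM domain, the chromatin protein BAF, and so takes part in fastening chromatin to the nuclear edge. It also binds nuclear actin and components of signalling pathways, beta-catenin among them, and loss of the X-linked EMD gene causes a form of Emery-Dreifuss muscular dystrophy. Prostate carcinoma cells of luminal type are marked by simple keratins and by the transcription factors FOXA1 and HOXB13.

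Reads assigned to genes ranged from 16795129 to 25441159 in the knockdown libraries and from 15602874 to 30788078 in the control libraries. Levels are given in CPM, the counts of a gene per 1000000 counts of the library after scaling by edgeR's TMM factors, and changes as log2 fold changes of knockdown over control with their standard errors, which are the values that stand beside a gene in parentheses or after "rose by". A gene was called where the adjusted p of edgeR's quasi-likelihood test (Benjamini-Hochberg over all 16656 genes) was under 0.05. Each standard error is the size of the log2 fold change divided by the square root of that test's F value. It is therefore approximate, most of all for genes with few reads. Root-mean-square log2 differences between libraries were 0.125 to 0.142 within the knockdown group, 0.174 to 0.188 within the control group and 0.636 to 0.653 between the groups. All 6 libraries carried the same batch label. The labels name triplicates but not separate cultures, so the p-values measure the spread between these libraries, which may be technical.

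EMD itself was present at 21.2, 19.6 and 17.5 CPM in the knockdown libraries, against 65.4, 69.7 and 60.9 CPM in the control libraries. Every knockdown library was below every control library, with a log2 fold change of -1.73 ± 0.073 (adjusted p = 4.29e-14). EMD transcript therefore remained in the knockdown libraries at a measurable level.

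The luminal markers were present in both groups. HOXB13, a homeobox factor of the prostate, had 411, 431 and 417 CPM in the knockdown libraries and 400.2, 417 and 386 CPM in the control libraries, and the groups overlapped (adjusted p = 0.117, or 0.0273 without control library 2). KRT8, a simple keratin, fell to 560.2, 548 and 566 CPM in the knockdown libraries, against 875, 938 and 854 CPM in the control libraries (-0.67 ± 0.036, adjusted p = 1.84e-12). KRT18, its partner, fell by less (-0.31 ± 0.035, adjusted p = 9.91e-08). The basal markers KRT5 and TP63 stayed at or below 0.0811 CPM in every library. The 6 fibroblast and endothelial markers of the table summed to 0.689 to 0.883 CPM in the knockdown libraries and 2.21 to 2.6 CPM in the control libraries. The 5 blood markers of the table summed to 3.3 to 4.05 CPM in the knockdown libraries and 14.3 to 16.2 CPM in the control libraries. HBA1, an alpha-globin gene, made up most of the control sum, with 2.43, 1.65 and 1.94 CPM in the knockdown libraries and 11.8, 12.1 and 12.3 CPM in the control libraries. Its near-identical copy HBA2 went the other way, with 264, 264 and 263 CPM in the knockdown libraries and 173, 168 and 153 CPM in the control libraries, so the division of reads between the copies makes each value uncertain. HBB, the beta-globin gene, was listed at no more than 0.122 CPM in any library.

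After knockdown, 5583 genes (33.5% of those tested) rose and 5705 genes (34.3%) fell. The sizes were unequal: 610 genes (3.66%) rose at least 2-fold and 2455 genes (14.7%) fell at least 2-fold. At 4-fold, the counts were 81 genes up and 1032 genes down. Falls of at least 2-fold lay mostly among genes of low level, as 1838 of the 2455 averaged under 10 CPM. Below 1 CPM on average, 33.4% of 1737 genes fell at least 2-fold, with a median log2 fold change of -0.50 over the class. From 3 to 10 CPM that share was 27.3% of 2388 genes, with a median of -0.33. From 100 to 300 CPM it was 2.15% of 1952 genes, with a median of 0.16, and 56.2% of the genes in this class rose. Accordingly, 14357 to 14440 genes reached 1 CPM in the knockdown libraries, against 15068 to 15143 genes in the control libraries.

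**Figure D1:**
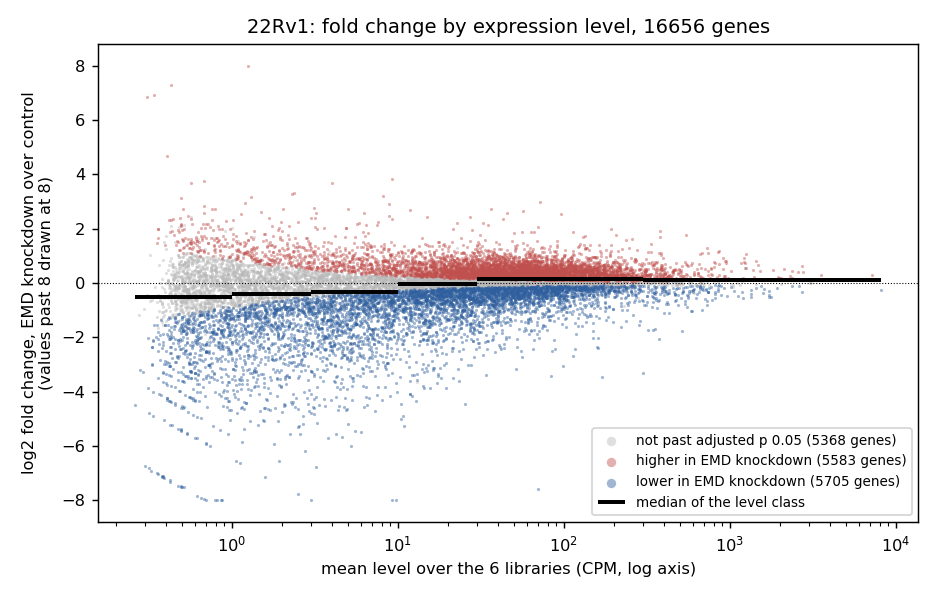
Log2 fold change of EMD knockdown over control (vertical axis) against mean level in CPM (horizontal log axis) for the 16656 tested genes, coloured by call, with the median of each level class as a black bar. The 2455 genes that fell at least 2-fold spread over the left of the plot, the medians move from -0.50 below 1 CPM to 0.16 at 100 to 300 CPM, and the curved rows of points at the bottom left are genes without reads in the knockdown libraries.

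The split depended on the scaling. With upper-quartile scaling in place of TMM, 39.4% of the calls were rises (4423 up and 6793 down), against 49.5% in the reported fit, and the median of all genes shifted to -0.11. With the trend with level removed by loess, 1118 genes rose and 1895 genes fell at least 2-fold, so that the excess of falls was smaller. Small changes of a list are read relative to that shift. In the fit of 22Rv1 alone, list counts are to be set against 33.5% up and 34.3% down over all tested genes. The level of a list matters too, so the median level of some lists is given. From 3 to 10 CPM, 18.4% of the tested genes rose and 47.6% fell, and from 10 to 30 CPM, 31.8% and 39.1%. From 30 to 100 CPM, 49.8% rose and 27.3% fell, and from 100 to 300 CPM, 56.2% and 23.1%. Among coding genes of at least 10 CPM, the median fold change differed little with exonic length, as it was 0.09 for genes of up to 3495 bases, 0.10 for those up to 5297 bases, 0.09 for those up to 7716 bases and 0.09 for longer ones. Of 563 long intergenic RNAs, 16.7% rose, against 33.5% of all tested genes, and 30.6% fell, against 34.3% (median -0.18). Coding genes were split evenly, with 5111 of 13916 up and 5048 down (median 0.01).

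By chromosome, the medians of the autosomes and the X ranged from -0.09 to 0.10. The Y chromosome stood apart, as all 14 of its tested genes fell, with a median of -2.44. In a fit of all 18 libraries over genes found in all 3 tables, 14 of 16 Y-linked genes fell and 0 rose in 22Rv1, 7 fell and 1 rose in C4-2B, and 1 fell and 2 rose in DU145. In these bulk samples a smaller number of cells with Y-linked transcripts and less of that RNA per cell cannot be told apart, and this holds for every change described here. Whether the knockdown and control cultures were of 1 passage and subline was not given in the sources used here. The part of such a difference, and of the Y-linked fall, in the changes described here was not tested. Of the 15 tested genes of the mitochondrial genome 11 rose and 1 fell, with a median of 0.55.

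**Figure D2:**
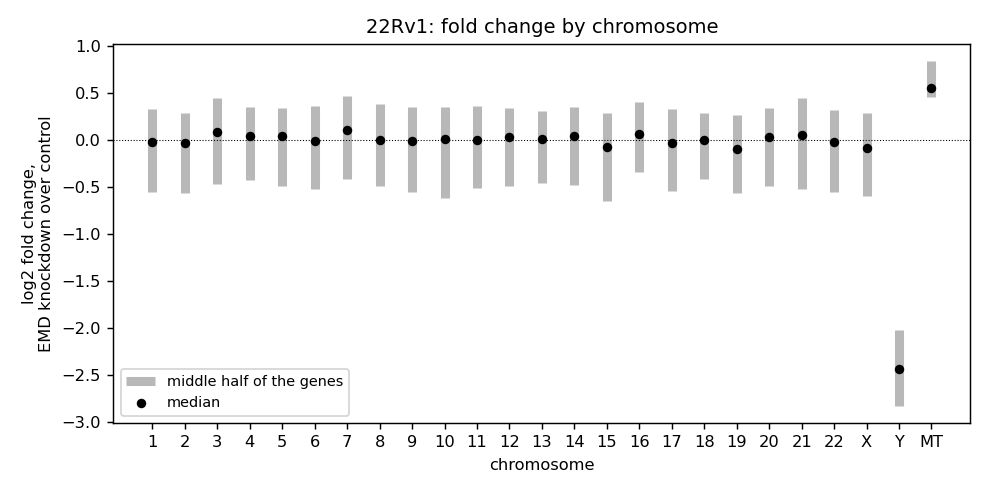
Median log2 fold change of EMD knockdown over control (points) and the range of the quartiles (grey bars) for each chromosome. The autosomes and the X lie between -0.09 and 0.10, the Y chromosome at -2.44 and the mitochondrial genome at 0.55.

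Genes of the cell cycle rose together. Of 57 tested genes of G1/S transition and DNA replication, 53 rose and 2 fell, with a median of 0.46, against a median of -0.0038 over all tested genes. In the G2/M and mitosis list, 51 of 64 genes rose and 3 fell, with a median of 0.48. DNA repair genes rose in 37 of 44 instances and fell in 2 (median 0.31). The median levels of these lists were 84.0, 87.8 and 57.1 CPM, in that order. Of all tested genes at 30 to 100 CPM, 49.8% rose and 27.3% fell, with a median of 0.134. Most of these rises were under 2-fold: 4 of the replication genes and 6 of the mitotic genes passed that size.

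The promoters of 4 of these genes are shown because they carry the short words by which E2F factors (replication genes) and the DREAM and MuvB complexes (mitotic genes, through the CHR element) are known to recognise cell cycle promoters. Sequences are from RefSeq (GRCh38.p14), run 5′ to 3′ on the gene's strand from 250 bases before to 50 bases after its start, and capitals mark the words found. CLSPN is on the minus strand at chr1:35769929-35770228, with an E2F word 5 bases before the start. MCM2 is on the plus strand at chr3:127598161-127598460, with overlapping E2F words on both strands, 2 and 6 bases after the start. KIF18A is on the minus strand at chr11:28108107-28108406, with a CHR word 10 bases before the start. CDC20 is on the plus strand at chr1:43358731-43359030, with CHR words 178 and 65 bases before the start.
CLSPN: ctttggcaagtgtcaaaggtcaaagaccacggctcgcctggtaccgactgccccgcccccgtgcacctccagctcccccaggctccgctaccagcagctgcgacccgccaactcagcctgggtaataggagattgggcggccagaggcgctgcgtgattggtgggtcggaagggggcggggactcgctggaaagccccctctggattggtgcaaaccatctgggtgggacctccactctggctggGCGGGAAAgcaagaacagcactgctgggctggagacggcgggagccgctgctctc
MCM2: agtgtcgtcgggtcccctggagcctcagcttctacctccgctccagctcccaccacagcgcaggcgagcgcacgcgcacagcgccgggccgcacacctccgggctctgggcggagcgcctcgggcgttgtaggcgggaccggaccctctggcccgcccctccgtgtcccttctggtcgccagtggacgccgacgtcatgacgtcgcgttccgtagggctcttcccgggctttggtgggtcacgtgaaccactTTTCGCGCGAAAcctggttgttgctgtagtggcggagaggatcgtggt
KIF18A: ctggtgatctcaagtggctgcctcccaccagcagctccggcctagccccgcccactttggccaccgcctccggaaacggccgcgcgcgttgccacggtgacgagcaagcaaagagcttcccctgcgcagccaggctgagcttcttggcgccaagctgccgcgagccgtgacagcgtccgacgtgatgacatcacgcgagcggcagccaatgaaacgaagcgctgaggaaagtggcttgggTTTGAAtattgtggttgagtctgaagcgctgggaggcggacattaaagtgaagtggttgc
CDC20: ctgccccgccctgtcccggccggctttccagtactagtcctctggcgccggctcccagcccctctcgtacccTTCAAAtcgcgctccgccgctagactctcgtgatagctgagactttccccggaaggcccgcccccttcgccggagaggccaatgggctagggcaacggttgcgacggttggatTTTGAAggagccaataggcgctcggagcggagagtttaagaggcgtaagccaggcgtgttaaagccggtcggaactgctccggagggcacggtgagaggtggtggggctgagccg

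The words searched for E2F were TTTCCCGC, TTTCGCGC, TTTGCCGC and TTTGGCGC, and for the CHR element TTTGAA and TTCGAA, on both strands. An E2F word was in 46.8% of the 47 replication genes with a promoter in the table, in 9.26% of the 54 mitotic genes, and in 5.26% of the 11154 tested coding genes with one. A CHR word was in 72.2% of the mitotic genes, in 4.26% of the replication genes and in 10.7% of the tested coding genes. The word CCAAT was in 75.9% of the mitotic genes and in 36.5% of the tested coding genes. Among all 27305 promoters of the same length, the shares were 3.33% for E2F, 16.6% for CHR and 35.7% for CCAAT. Among the 401 coding genes that rose at least 2-fold, 323 had a promoter, of which 5.57% held an E2F word and 17.6% a CHR word. Of the coding genes that fell at least 2-fold, 73.6% had a promoter in the table, against 80.5% of those that rose at least 2-fold. Because of this lower share, the motif count of the fallen genes was taken as void and is not given. A match is a description of the sequence only.

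Among the replication genes with the E2F words shown, CLSPN, which encodes the checkpoint adaptor claspin, had 78.1, 75.9 and 74.6 CPM in the knockdown libraries, against 28.6, 29.1 and 28.9 CPM in the control libraries (1.402 ± 0.054, adjusted p = 1.03e-14). MCM2, a subunit of the replicative helicase, had 466, 464 and 468 CPM in the knockdown libraries, against 312, 317 and 293 CPM in the control libraries (0.601 ± 0.035, adjusted p = 8.50e-12). The groups were separate for both genes, and the fold change of CLSPN was the larger. ORC1, of the origin recognition complex, rose by 1.24 ± 0.11, with 26.2, 24.5 and 27.1 CPM in the knockdown libraries and 13.1, 9.497 and 9.99 CPM in the control libraries. CCNE2, a cyclin E gene, rose (1.08 ± 0.058), as did POLE2, a DNA polymerase epsilon subunit (0.95 ± 0.097), and MCM3 (0.42 ± 0.044). The 2 replication genes that fell were CCNE1 (-0.77 ± 0.13), the other cyclin E gene, and CDK6 (-0.51 ± 0.068), a kinase of early G1. Both cyclin E genes thus passed the test in opposite directions.

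Among mitotic genes, KIF18A, a kinesin that acts at kinetochore microtubules, had 27.9, 26.5 and 32.1 CPM in the knockdown libraries, against 12.8, 9.56 and 12.3 CPM in the control libraries (1.296 ± 0.10, adjusted p = 1.33e-09). CDC20, which activates the anaphase-promoting complex, had 233, 223 and 231 CPM in the knockdown libraries, against 109, 108 and 103 CPM in the control libraries (1.11 ± 0.039, adjusted p = 3.07e-15). In both genes every knockdown library was above every control library. The motor genes KIF4A (1.24 ± 0.051) and CENPE (1.18 ± 0.053), the checkpoint kinase gene TTK (1.01 ± 0.079), the phosphatase gene CDC25B (1.06 ± 0.043) and the cyclin genes CCNB1 (0.98 ± 0.040) and CCNA2 (0.61 ± 0.043) rose as well. The 3 that fell did so by little: CDC25C (-0.25 ± 0.11), CKS1B (-0.14 ± 0.040) and CDK1 (-0.14 ± 0.041). The CDC25C call was lost without knockdown library 1 or 3 (adjusted p = 0.163 and 0.0758) and without control library 2 or 3 (adjusted p = 0.124 and 0.0766). In the repair list, NBN, of the MRE11 complex, rose by 1.16 ± 0.051, the helicase gene BLM by 0.93 ± 0.077 and the recombination gene XRCC2 by 0.69 ± 0.077, while UBE2T (-0.14 ± 0.045) and DDB2 (-0.27 ± 0.080) fell, UBE2T at adjusted p = 0.0518 without knockdown library 1.

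Cell cycle inhibitors moved in both directions, with 4 of 11 up and 6 down (36.4% and 54.5%, against 33.5% and 34.3% of all tested genes). CDKN1C, which encodes p57, fell to 15.5, 16.3 and 14.5 CPM in the knockdown libraries, against 60.3, 60.98 and 56.7 CPM in the control libraries (-1.94 ± 0.068, adjusted p = 2.49e-15). CDKN1B, which encodes p27, had 257, 259.9 and 261 CPM in the knockdown libraries, against 117, 122 and 124 CPM in the control libraries (1.102 ± 0.037, adjusted p = 1.36e-15). These related inhibitors were thus separated by direction, each without overlap between the groups. Targets of p53 fell in 20 of 32 instances and rose in 9 (median -0.37). Those that fell included PMAIP1, which encodes the death protein NOXA (-1.796 ± 0.077), the cytokine gene GDF15 (-1.43 ± 0.079) and GADD45A, a stress gene (-1.08 ± 0.067). In the BCL2 family 12 of 23 genes fell and 8 rose (52.2% and 34.8%, against 34.3% and 33.5% of all tested genes), so the share of rises was near that of all genes. The pro-death members HRK (-2.74 ± 0.18) and BMF (-1.33 ± 0.074) and the mitophagy gene BNIP3L (-1.22 ± 0.054) fell, and BCL2L12 rose (1.01 ± 0.069). BCL2 itself had 10.5, 12.6 and 11.1 CPM in the knockdown libraries and 11.9, 10.2 and 11.5 CPM in the control libraries, with overlapping groups (adjusted p = 0.947).

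Genes of RNA processing and nuclear transport rose. Of 57 splicing factors, 42 rose and 7 fell (median 0.36, median level 152 CPM). SRSF1, an SR protein gene, had 392, 380.3 and 398 CPM in the knockdown libraries, against 123, 131 and 127 CPM in the control libraries (1.62 ± 0.038, adjusted p = 5.33e-18). The groups were far apart relative to the spread within each. SRSF2 rose by 1.27 ± 0.038 and HNRNPDL, an hnRNP gene, by 1.401 ± 0.048. The 2 splicing factors that fell at least 2-fold were MBNL2 and NOVA2, regulators known from muscle and nerve. MBNL2 fell to 1.66, 1.47 and 1.77 CPM in the knockdown libraries, against 9.99, 10.2 and 10.5 CPM in the control libraries (-2.64 ± 0.16), and NOVA2 fell by 1.78 on the log2 scale.

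Nuclear pore and transport genes rose in 46 of 59 instances and fell in 6 (78.0% and 10.2%, median 0.28). Their median level was 142 CPM, and of all tested genes at 100 to 300 CPM, 56.2% rose and 23.1% fell (median 0.16). The importin gene IPO4 had 203, 206 and 215 CPM in the knockdown libraries, against 76.7, 82.2 and 75.3 CPM in the control libraries (1.42 ± 0.043, adjusted p = 3.62e-16). The pore gene SEH1L rose by 0.83 ± 0.045 and the importin alpha gene KPNA2 by 0.73 ± 0.038. Of 33 genes of the nuclear envelope and lamina, 15 rose and 6 fell (45.5% and 18.2%), with EMD among those that fell. Their median level was 85.9 CPM, and of all tested genes at 30 to 100 CPM, 49.8% rose and 27.3% fell. The share of rises in this list was thus not above that of its level class. TOR1AIP1, an inner membrane partner of lamins, rose by 0.86 ± 0.051, and ICMT, which methylates prenylated lamins, rose by 0.78 ± 0.036. SYNE3, which links the envelope to the cytoskeleton, fell to 8.19, 8.81 and 8.18 CPM in the knockdown libraries, against 20.7, 16.1 and 20.4 CPM in the control libraries (-1.197 ± 0.11).

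Ribosomal genes were divided by role. Of 76 genes of cytosolic ribosomal proteins, 49 fell and 4 rose (median -0.27), with 0 of either kind past 2-fold. RPS15A, a small-subunit protein, had 373, 376 and 376 CPM in the knockdown libraries, against 537, 566 and 619 CPM in the control libraries (-0.61 ± 0.043, adjusted p = 5.90e-10). RPL13A, of the large subunit, had 1462, 1480.5 and 1459 CPM in the knockdown libraries, against 1980.1, 2149 and 2089 CPM in the control libraries (-0.498 ± 0.032, adjusted p = 2.49e-11). Both fell without overlap, and RPL3 (-0.43 ± 0.029), RPL34 (-0.63 ± 0.067) and RPL9 (-0.78 ± 0.14) fell as well, RPL9 with control values that spread widely (457, 518 and 638 CPM). The 4 that rose, named because they went against their list, were RPSA (0.27 ± 0.028), RPS12 (0.18 ± 0.033), RPS15 (0.19 ± 0.035) and RPS26 (0.14 ± 0.038). The calls of RPS12 and RPS26 were lost under upper-quartile scaling (adjusted p = 0.0819 and 0.485) and with the level trend removed (adjusted p = 0.063 and 0.724), and that of RPS26 also without knockdown library 3 (adjusted p = 0.0553). The elongation factor genes EEF1A1 (-0.27 ± 0.024) and EEF2 (-0.34 ± 0.030) fell too, with 2380.1, 2392 and 2404 CPM of EEF2 in the knockdown libraries and 3074, 3119.7 and 2908 CPM in the control libraries. Ribosomal protein genes have many processed pseudogenes, so single values depend on how reads were divided.

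Genes that build ribosomes in the nucleolus rose instead, 38 of 47 against 2 that fell (median 0.34). UTP20, of the small-subunit processome, had 88.99, 82.2 and 92.8 CPM in the knockdown libraries, against 42.6, 39.4 and 37.95 CPM in the control libraries (1.14 ± 0.059, adjusted p = 1.08e-12). RRP9, a U3 snoRNP protein, rose by 1.03 ± 0.043, the box C/D protein gene NOP58 by 0.82 ± 0.047 and the nucleolin gene NCL by 0.699 ± 0.031. NPM1, the nucleophosmin gene, rose by 0.104 ± 0.033 (adjusted p = 0.00919), a change whose sign turned with upper-quartile scaling and whose call was lost without knockdown library 1 (adjusted p = 0.105). TCOF1 (-0.49 ± 0.045) and GNL3 (-0.35 ± 0.038) were the 2 that fell. Mitochondrial ribosomal genes rose in 49 of 75 instances and fell in 6 (median 0.23, median level 66.9 CPM), with MRPS6 at 1.41 ± 0.087 and MRPL40 at 0.899 ± 0.080.

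Of 13 genes of the list encoded by the mitochondrial genome, 11 rose and 0 fell (median 0.55). MT-CYB, of complex III, had 1198, 1145 and 1126 CPM in the knockdown libraries, against 608, 472 and 501 CPM in the control libraries (1.13 ± 0.11, adjusted p = 6.17e-04). MT-ND2, of complex I, had 908, 888 and 874 CPM in the knockdown libraries, against 469, 384 and 415 CPM in the control libraries (1.07 ± 0.068). Mitochondrial genes took 1.45% to 1.54% of reads in the knockdown libraries and 0.964% to 1.2% in the control libraries. The respiratory subunits encoded in the nucleus moved less as a list, with 27 of 70 up and 11 down (median 0.06), and under upper-quartile scaling more fell (25) than rose (22), as they did with the level trend removed (30 and 20). ATP5MC3, a ring subunit of ATP synthase, rose by 1.56 ± 0.056 and COX7C by 0.89 ± 0.081, while NDUFB4, of complex I, fell by 0.70 on the log2 scale. Proteasome genes rose in 26 of 31 instances and fell in 0 (median 0.30, median level 124 CPM). The ATPase subunits PSMC4 (0.805 ± 0.049) and PSMC3 (0.76 ± 0.041) were among those that rose.

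**Figure D3:**
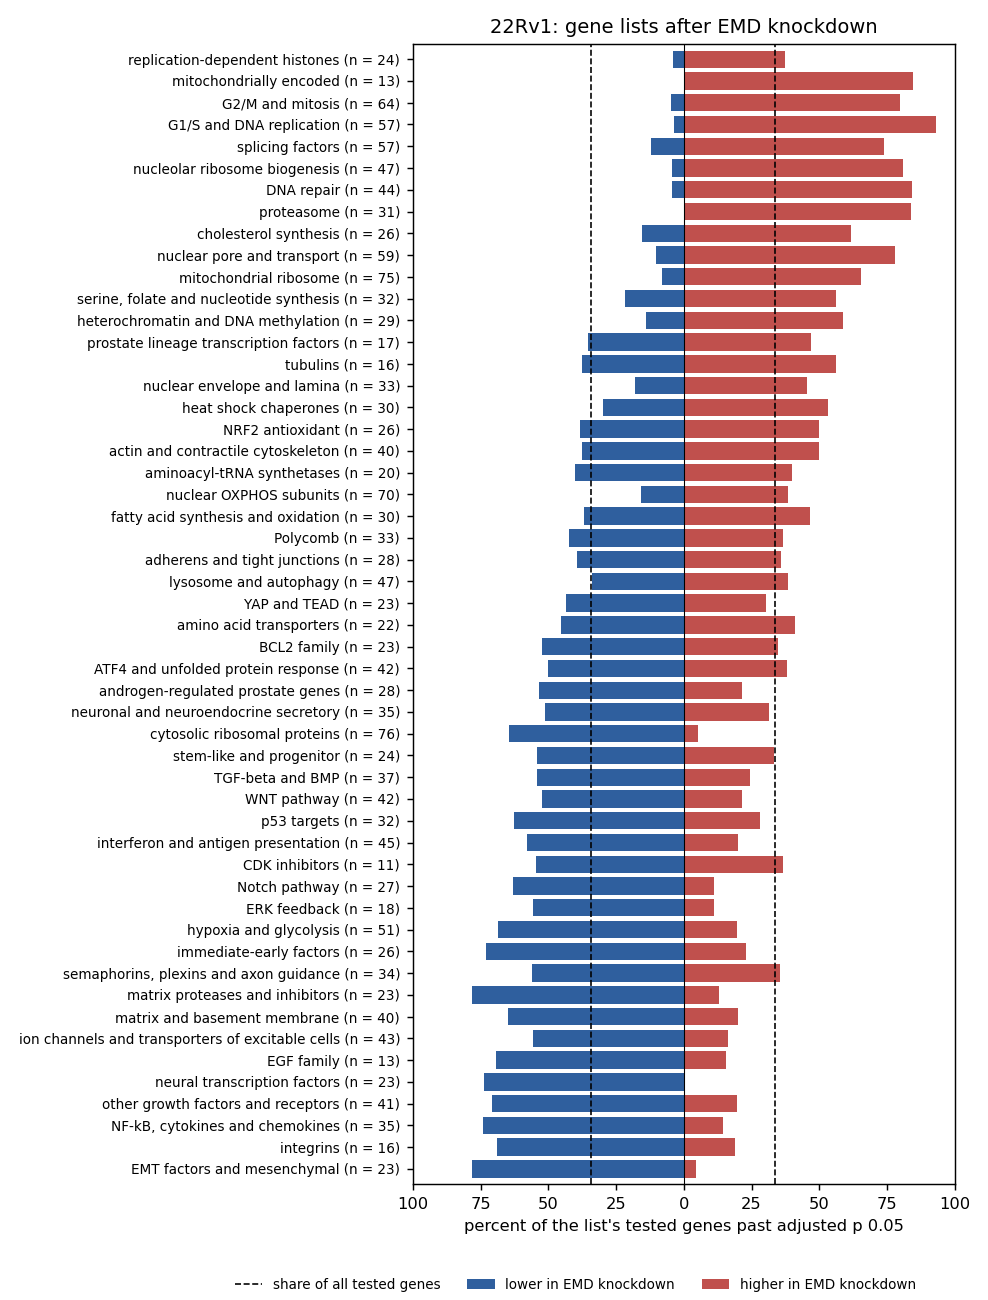
Percent of the tested genes of each list that were higher (right bars) or lower (left bars) in EMD knockdown at adjusted p under 0.05, ordered by the list's median fold change, with dashed lines at the shares of all tested genes (33.5% up and 34.3% down). Replication, mitosis, repair, proteasome and nucleolar lists are mostly to the right. The lists of epithelial-mesenchymal transition, growth factors, integrins and neural transcription factors are mostly to the left.

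Growth factor genes and those of their receptors fell more often than they rose. Of 41 growth factors and receptors outside the EGF family, 29 fell and 8 rose (median -0.96), and 20 of the falls were at least 2-fold. IGFBP5, a secreted binding protein of insulin-like growth factors, had 0.7298, 0.428 and 1.00 CPM in the knockdown libraries, against 142, 140.3 and 134 CPM in the control libraries (-7.57 ± 0.11, adjusted p = 2.40e-21). Its level was far lower in every knockdown library than in any control library. The growth factor gene IGF2 had 1.14, 1.28 and 1.18 CPM in the knockdown libraries, against 26.9, 25.4 and 21.1 CPM in the control libraries (-4.35 ± 0.15). PDGFA, a platelet-derived growth factor chain, fell by 3.81 and the ephrin receptor gene EPHB2 by 2.09 on the log2 scale. MDK, which encodes the growth factor midkine, rose, with 1587, 1581 and 1581 CPM in the knockdown libraries and 831, 879 and 824 CPM in the control libraries (0.91 ± 0.031).

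In the TGF-beta and BMP pathway, 20 of 37 genes fell and 9 rose (median -0.36). Among ligands, BMP7 had 4.05, 2.63 and 1.88 CPM in the knockdown libraries, against 32.1, 32.1 and 31.6 CPM in the control libraries (-3.42 ± 0.16, adjusted p = 2.45e-10). INHBA, an activin subunit, had 1.50, 2.51 and 2.47 CPM in the knockdown libraries, against 20.7, 21.99 and 23.5 CPM in the control libraries (-3.397 ± 0.15, adjusted p = 7.36e-14). Both ligands were several times lower in each knockdown library than in any control library. TGFB1 fell by less (-0.53 ± 0.062). ID2, a target of BMP signalling, rose to 194, 190.3 and 198 CPM in the knockdown libraries, against 74.7, 82.3 and 80.0 CPM in the control libraries (1.298 ± 0.043, adjusted p = 1.23e-15).

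In the WNT pathway, 22 of 42 genes fell and 9 rose (median -0.36). The ligand gene WNT5A had 1.14, 0.734 and 1.41 CPM in the knockdown libraries, against 10.7, 12.7 and 10.2 CPM in the control libraries (-3.33 ± 0.19). The feedback inhibitors of the pathway that fell included NKD1 (-3.02 ± 0.17), NOTUM (-2.17 ± 0.11), which removes the lipid of WNT proteins, and AXIN2 (-1.11 ± 0.15). LGR5, an R-spondin receptor, rose, with 16.3, 14.1 and 16.4 CPM in the knockdown libraries and 2.43, 1.69 and 1.99 CPM in the control libraries (2.91 ± 0.15, adjusted p = 8.81e-13). In the Notch pathway 17 of 27 genes fell and 3 rose (median -0.53), with the deltex genes DTX1 (-2.66 ± 0.15) and DTX4 (-1.59 ± 0.084) among the falls.

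Axon guidance genes moved both ways, with 19 of 34 down and 12 up (median -0.69). NTN1, which encodes the ligand netrin-1, had 1.58, 1.897 and 2.001 CPM in the knockdown libraries, against 22.4, 21.7 and 21.7 CPM in the control libraries (-3.602 ± 0.13, adjusted p = 3.21e-15). UNC5A, a netrin receptor, had 3.69, 2.81 and 3.35 CPM in the knockdown libraries, against 25.7, 30.99 and 24.8 CPM in the control libraries (-3.02 ± 0.13). Ligand and receptor thus fell together. The semaphorin gene SEMA6B fell to 15.9, 15.5 and 17.9 CPM in the knockdown libraries, against 96.3, 93.97 and 90.2 CPM in the control libraries (-2.51 ± 0.063), and SLIT2, a ligand of ROBO receptors, fell by 2.07 on the log2 scale.

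The matrix and its receptors were lower after knockdown in most of their genes. Of 40 genes of matrix and basement membrane, 26 fell and 8 rose (median -0.80). NID1, the basement membrane linker nidogen-1, had 9.89, 9.299 and 11.8 CPM in the knockdown libraries, against 97.2, 94.1 and 86.2 CPM in the control libraries (-3.16 ± 0.078, adjusted p = 1.22e-17). The collagen IV chain gene COL4A2 fell (-3.61 ± 0.20) and the laminin chain gene LAMB3 fell (-2.68 ± 0.17). Integrin genes fell in 11 of 16 instances and rose in 3 (median -1.10, median level 6.9 CPM). ITGAV, the alpha V chain, had 69.9, 70.4 and 74.8 CPM in the knockdown libraries, against 136, 131 and 131 CPM in the control libraries (-0.89 ± 0.044), while ITGB5, a beta chain that pairs with it, had 399, 393 and 407 CPM in the knockdown libraries, against 234, 245 and 240.5 CPM in the control libraries (0.74 ± 0.034). ITGA7, the chain of a laminin receptor, fell (-1.65 ± 0.094).

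Of 23 matrix proteases and their inhibitors, 18 fell and 3 rose (median -0.72). TIMP2, an inhibitor of metalloproteinases, had 16.3, 13.1 and 16.2 CPM in the knockdown libraries, against 70.98, 73.04 and 71.3 CPM in the control libraries (-2.23 ± 0.072, adjusted p = 7.12e-16). MMP14, a membrane metalloproteinase that TIMP2 binds, had 2.88, 2.88 and 2.65 CPM in the knockdown libraries, against 13.9, 12.1 and 11.4 CPM in the control libraries (-2.15 ± 0.14). The protease gene ADAM19 fell as well (-3.33 ± 0.16), and MMP16, another membrane metalloproteinase, rose (1.08 ± 0.079). Of 23 factors and markers of epithelial-mesenchymal transition, 18 fell and 1 rose (median -1.11, median level 10.1 CPM). This list holds epithelial as well as mesenchymal genes, so its count gives no direction of the transition. Keratin genes fell in 5 of 7 instances and rose in 0, the simple keratin KRT7 to 2.88, 3.06 and 2.71 CPM in the knockdown libraries, against 27.7, 26.4 and 27.8 CPM in the control libraries (-3.24 ± 0.11). Genes of actin and the contractile cytoskeleton showed no common direction, with 20 of 40 up and 15 down, and with more falls (18) than rises (17) under upper-quartile scaling. ACTB, beta-actin, rose (0.53 ± 0.032).

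Neural genes were divided as well. Of 23 neural transcription factors, 17 fell and 0 rose (median -0.90). Their median level was 5.84 CPM, and of all tested genes at 3 to 10 CPM, 47.6% fell and 18.4% rose (median -0.33). How much of the fall of this list goes with its level was not tested. MYT1, a zinc finger factor of neurons, had 8.11, 6.55 and 8.24 CPM in the knockdown libraries, against 26.5, 25.2 and 27.4 CPM in the control libraries (-1.78 ± 0.10). MYCN, a MYC family gene, had 12.3, 12.5 and 12.9 CPM in the knockdown libraries, against 36.3, 34.7 and 35.4 CPM in the control libraries (-1.499 ± 0.075). SOX4 fell by less than MYT1 on the log2 scale (-0.900 ± 0.038). Ion channels and transporters of excitable cells fell in 24 of 43 instances and rose in 7 (median -0.81, median level 11.2 CPM). The potassium channel gene KCND1 (-3.51 ± 0.096) was among the falls.

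Genes of neuroendocrine secretion did not share a direction, as 18 of 35 fell and 11 rose. CHGA, which encodes the granule protein chromogranin A, had 107, 107 and 101 CPM in the knockdown libraries, against 45.7, 47.9 and 47.6 CPM in the control libraries (1.16 ± 0.049, adjusted p = 4.39e-14). SYP, which encodes synaptophysin, rose by less (0.27 ± 0.049). VGF, a secreted neuropeptide precursor, had 1169.8, 1229 and 1204 CPM in the knockdown libraries, against 542, 558 and 478 CPM in the control libraries (1.19 ± 0.051). The adhesion gene NCAM2 rose (1.56 ± 0.052), and RAB3A, a GTPase of vesicle release, fell to 10.1, 11.3 and 11.4 CPM in the knockdown libraries, against 51.03, 51.8 and 46.4 CPM in the control libraries (-2.19 ± 0.078).

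Immediate-early factors, which growth signals induce quickly, fell in 19 of 26 instances and rose in 6 (median -0.62). NR4A1, an orphan nuclear receptor, had 26.8, 26.7 and 29.4 CPM in the knockdown libraries, against 93.3, 97.6 and 81.5 CPM in the control libraries (-1.71 ± 0.069, adjusted p = 6.68e-14). EGR3 (-2.75 ± 0.16), FOS (-1.36 ± 0.11) and FOSB (-1.35 ± 0.23) fell, and so did ATF3 (-1.55 ± 0.073). The largest rise of the list was that of KLF2, a zinc finger factor known from endothelium and T cells, with 127, 127 and 130.1 CPM in the knockdown libraries, against 17.7, 17.1 and 13.9 CPM in the control libraries (2.99 ± 0.070, adjusted p = 5.01e-17). ZFP36, which encodes the mRNA decay factor tristetraprolin, had 110.5, 113 and 117 CPM in the knockdown libraries, against 28.6, 25.9 and 26.4 CPM in the control libraries (2.07 ± 0.054, adjusted p = 3.29e-17). These 2 genes lay far above the control range while most of the list lay below it.

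Genes of ERK feedback fell in 10 of 18 instances and rose in 2 (median -0.53), among them the ERK phosphatase genes DUSP5 (-2.54 ± 0.19) and DUSP6 (-1.02 ± 0.078). In the EGF family, 9 of 13 genes fell and 2 rose (median -0.83, median level 9.1 CPM). EGFR, the receptor, was one of those that rose, with 1538, 1509 and 1521 CPM in the knockdown libraries and 969.6, 843 and 866 CPM in the control libraries (0.77 ± 0.043, adjusted p = 8.88e-10). Its inhibitor ERRFI1 fell to 49.1, 49.7 and 52.7 CPM in the knockdown libraries, against 178, 187 and 192 CPM in the control libraries (-1.88 ± 0.047, adjusted p = 1.43e-17). LRIG1, another inhibitor of the receptor, fell too (-0.95 ± 0.11). Receptor and inhibitors therefore moved in opposite directions at the RNA level.

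Of 51 genes of hypoxia and glycolysis, 35 fell and 10 rose (median -0.54). DDIT4, an inhibitor of mTORC1 induced by hypoxia and other stress, had 29.4, 26.4 and 29.7 CPM in the knockdown libraries, against 311, 319.5 and 305 CPM in the control libraries (-3.45 ± 0.048, adjusted p = 2.40e-21). BHLHE40, a repressor induced by hypoxia, fell (-3.14 ± 0.17). KDM4B, a histone demethylase of the list, rose to 602, 614 and 581 CPM in the knockdown libraries, against 170.2, 155 and 151 CPM in the control libraries (1.92 ± 0.043, adjusted p = 1.00e-17). The list of ATF4 targets and the unfolded protein response was mixed, with 21 of 42 down and 16 up. ATF4 itself fell (-0.41 ± 0.036), and PHGDH, the entry enzyme of serine synthesis, fell to 91.7, 92.3 and 100.4 CPM in the knockdown libraries, against 229, 232 and 226 CPM in the control libraries (-1.27 ± 0.042). ATF5 rose to 54.9, 56.5 and 49.5 CPM in the knockdown libraries, against 11.5, 11.1 and 11.8 CPM in the control libraries (2.22 ± 0.073, adjusted p = 1.00e-15), and HSPA5, the chaperone BiP of the endoplasmic reticulum, rose (0.82 ± 0.029).

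Chaperone genes of the heat shock list rose in 16 of 30 instances and fell in 9. HSPH1, a co-chaperone of HSP70, had 178, 173 and 183 CPM in the knockdown libraries, against 46.2, 47.05 and 50.1 CPM in the control libraries (1.89 ± 0.046, adjusted p = 1.07e-17). HSP90AA1 rose (0.61 ± 0.029), while the stress-induced HSPA6 fell to 1.50, 1.28 and 1.35 CPM in the knockdown libraries, against 11.9, 12.7 and 11.4 CPM in the control libraries (-3.102 ± 0.16). Amino acid transporter genes were split, with 9 of 22 up and 10 down. The large neutral amino acid transporter gene SLC7A5 rose (0.28 ± 0.032), and SLC7A8 (-2.49 ± 0.11) and SLC43A1 (-2.096 ± 0.081), which carry similar amino acids, fell.

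In lipid metabolism, 16 of 26 cholesterol synthesis genes rose and 4 fell (median 0.30). SREBF1, the transcription factor of lipid synthesis, had 207, 207 and 204 CPM in the knockdown libraries, against 60.8, 64.2 and 59.4 CPM in the control libraries (1.75 ± 0.042, adjusted p = 1.00e-17). SCD, the fatty acid desaturase that SREBF1 is known to induce, fell to 257, 251 and 251 CPM in the knockdown libraries, against 563, 537 and 536 CPM in the control libraries (-1.11 ± 0.034, adjusted p = 3.86e-16). ACSL4, which activates arachidonic acid, fell too (-2.299 ± 0.14). Fatty acid genes were mixed, with 14 of 30 up and 11 down, and more fell (12) than rose (10) under upper-quartile scaling and with the level trend removed. Among 47 lysosome and autophagy genes 18 rose and 16 fell, a majority that turned under 6 of the 16 alternatives, one of them without control library 1 (17 up and 18 down). There TFE3, a transcription factor of lysosomal genes, fell (-1.58 ± 0.059).

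Genes of antigen presentation and inflammation fell. Of 45 genes of interferon response and antigen presentation, 26 fell and 9 rose (median -0.47). Among class I heavy chains, HLA-B had 12.2, 10.03 and 9.71 CPM in the knockdown libraries, against 56.5, 60.2 and 59.3 CPM in the control libraries (-2.44 ± 0.079, adjusted p = 7.98e-16). HLA-C fell by less (-1.22 ± 0.043), and B2M, the light chain, by less again (-0.47 ± 0.041). The heavy chains share sequence, so the values of single genes are uncertain, but both of these were lower in every knockdown library. TAPBP, the tapasin gene of peptide loading, rose (1.24 ± 0.044). BST2, an antiviral membrane protein, fell to 1.42, 0.856 and 1.06 CPM in the knockdown libraries, against 16.8, 20.1 and 19.4 CPM in the control libraries (-4.02 ± 0.16).

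Of 35 genes of NF-kB, cytokines and chemokines, 26 fell and 5 rose (median -0.96). The receptor gene CD40 had 0, 0.428 and 0.471 CPM in the knockdown libraries, against 8.86, 10.2 and 10.2 CPM in the control libraries (-5.19 ± 0.41, adjusted p = 8.92e-07). SOCS3, the feedback inhibitor of cytokine receptors, had 0.811, 1.16 and 1.06 CPM in the knockdown libraries, against 14.1, 14.9 and 13.4 CPM in the control libraries (-3.83 ± 0.17). The complement gene C3 fell by 5.26 on the log2 scale. NFKBIZ, a nuclear regulator of NF-kB, rose to 26.2, 31.4 and 30.8 CPM in the knockdown libraries, against 11.2, 10.9 and 12.3 CPM in the control libraries (1.35 ± 0.093).

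Prostate lineage factors showed no common direction, with 8 of 17 up and 6 down, a majority that turned under 3 alternatives. FOXA1 had 384, 393 and 397 CPM in the knockdown libraries and 369, 356 and 338 CPM in the control libraries (0.14 ± 0.037, adjusted p = 0.00165), a small rise that was not called under library totals, upper-quartile scaling or removal of the level trend. ETV1, an ETS factor, rose (1.18 ± 0.11). Of 28 genes known to be androgen-regulated in prostate, 15 fell and 6 rose (median -0.18). PDE9A, a phosphodiesterase, fell (-1.42 ± 0.084), and C1orf116, an androgen-induced gene, rose to 59.9, 54.3 and 58.7 CPM in the knockdown libraries, against 20.8, 21.4 and 18.9 CPM in the control libraries (1.51 ± 0.067).

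The largest rises over all genes included some genes of steroid metabolism, named here by their size and not from a list. UGT2B15, which inactivates androgens by glucuronidation and is known to be repressed by androgen in prostate cells, had 95.97, 102 and 97.5 CPM in the knockdown libraries, against 13.7, 17.8 and 15.6 CPM in the control libraries (2.67 ± 0.071, adjusted p = 6.38e-17). UGT2B10 of the same family had 24.4, 25.4 and 26.2 CPM in the knockdown libraries, against 5.07, 3.69 and 4.95 CPM in the control libraries (2.44 ± 0.11). Both were raised in each knockdown library, and because the family members are alike, the share of each is uncertain. STS, the steroid sulfatase gene, rose (2.73 ± 0.22), as did the tetraspanin gene TSPAN8 (2.73 ± 0.077). ALB, the albumin gene, had 79.7, 75.8 and 79.2 CPM in the knockdown libraries and 13.4, 13.6 and 12.7 CPM in the control libraries (2.57 ± 0.063). PSCA, a surface antigen of prostate, rose too (2.21 ± 0.19), but was named from the list of stem-like and progenitor genes and not by its size over all genes. NBPF1, of a family with many near-identical copies, rose by 2.55 ± 0.052, a value that depends on the division of reads.

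Some genes were lost from the libraries altogether. Of the tested genes, 28 had no reads in any knockdown library and 4 had none in any control library. TMEM265, a transmembrane protein gene, had 0 reads in each knockdown library, against 18.5, 17.5 and 19.5 CPM in the control libraries, which makes it at least 361-fold lower when 3 reads over the 3 knockdown libraries are taken as the floor. H2AC19, a histone H2A gene, also had 0 reads in each knockdown library, against 34.4, 12.6 and 11.9 CPM in the control libraries, but its near-identical copy H2AC18 had 21.3, 19.5 and 19.4 CPM in the knockdown libraries and 0, 20.9 and 21.9 CPM in the control libraries, so the value of neither copy is certain. Its call was lost when any library but control library 1 was left out (adjusted p = 0.069 to 0.159). Other genes with large falls kept a few reads. The protease gene ADAMTS2 had 0.203, 0.245 and 0 CPM in the knockdown libraries, against 9.07, 11.3 and 10.6 CPM in the control libraries (-6.001 ± 0.31). The neuropeptide receptor gene ADCYAP1R1 (-5.48 ± 0.23), the zinc transporter gene SLC30A3 (-5.45 ± 0.23), the parathyroid hormone receptor gene PTH1R (-5.01 ± 0.17) and the carboxypeptidase inhibitor gene LXN (-4.905 ± 0.17) fell by similar amounts.

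**Figure D4:**
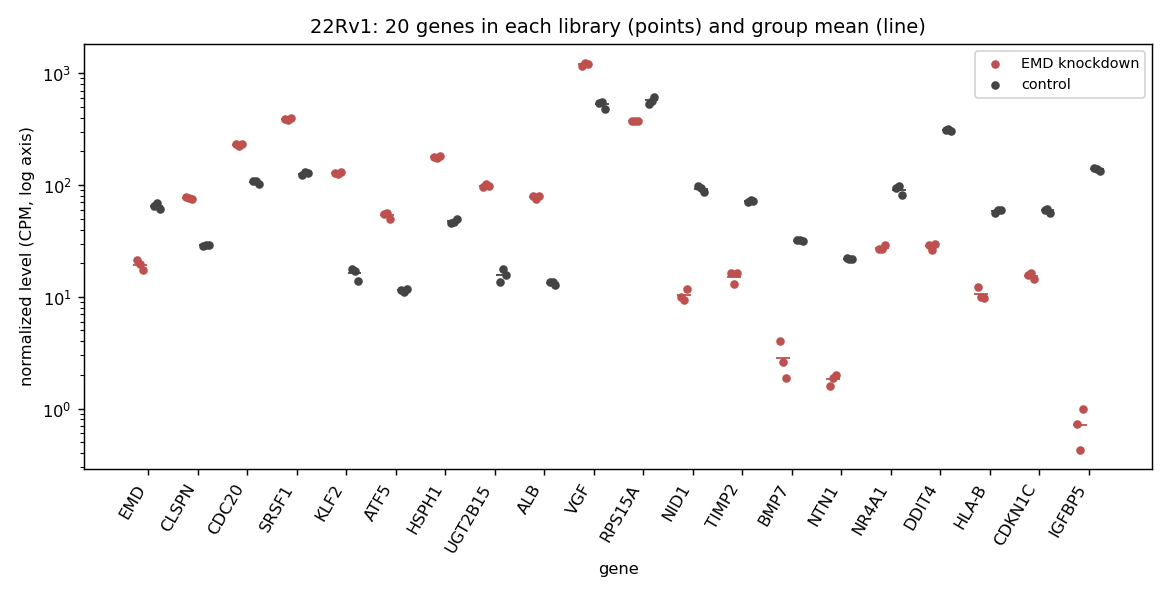
Level in CPM (vertical log axis) of 20 genes in each library, with the 3 EMD knockdown libraries left of the 3 control libraries for each gene and a line at each group mean. The groups do not overlap for any of the 20 genes: EMD and the 10 from RPS15A to IGFBP5 are lower in knockdown, and the 9 from CLSPN to VGF are higher.

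Whether the 22Rv1 response differed from that of the other lines was tested in a fit of all 18 libraries over 17152 genes, as the 22Rv1 effect minus the mean of the C4-2B and DU145 effects. The effect was higher in 22Rv1 for 4724 genes (27.5%) and lower for 5218 genes (30.4%). Of the 17152 genes of this fit, 4854 rose and 5638 fell in 22Rv1. Counts over all genes are not given here for C4-2B and DU145. List counts in those lines are therefore descriptions only, and whether they depart from the share of all genes was not tested. Line, table and batch label coincide and cannot be told apart. The DU145 columns also carry the name shEMD, while the labels describe siRNA for all 3 lines, so the knockdown method in DU145 is uncertain and cannot be told apart from the line. The EMD transcript fell less in 22Rv1, with log2 fold changes of -1.78 in 22Rv1, -3.07 in C4-2B and -3.20 in DU145 in this fit.

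The cell cycle lists had medians of opposite sign in 22Rv1 and C4-2B. Of the G2/M and mitosis genes, 50 of 64 rose and 3 fell in 22Rv1 (median 0.44), 0 rose and 64 fell in C4-2B (median -2.09), and 37 rose and 8 fell in DU145 (median 0.18). In the test of the difference 64 were higher and 0 lower in 22Rv1. Of the G1/S and replication genes, 51 of 57 rose and 2 fell in 22Rv1 (median 0.42), 1 rose and 52 fell in C4-2B (median -1.03), and 19 rose and 10 fell in DU145 (median 0.03), and 51 were higher and 2 lower in 22Rv1. Cytosolic ribosomal protein genes went the other way: 4 of 76 rose and 58 fell in 22Rv1 (median -0.31), 49 rose and 0 fell in C4-2B (median 0.20), and 55 rose and 4 fell in DU145 (median 0.24), and 0 were higher and 66 lower in 22Rv1. Of the mitochondrially encoded genes, 10 of 13 rose and 0 fell in 22Rv1 (median 0.50), 0 rose and 8 fell in C4-2B (median -0.42), and 0 rose and 10 fell in DU145 (median -0.36).

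The growth factor, channel and immediate-early lists, which fell in 22Rv1, had medians nearer 0 in both other lines. Of the growth factors and receptors, 7 of 41 rose and 28 fell in 22Rv1 (median -1.01), 12 rose and 12 fell in C4-2B (median -0.06), and 12 rose and 17 fell in DU145 (median -0.13), and 7 were higher and 23 lower in 22Rv1. Of the ion channel and transporter genes, 4 of 42 rose and 24 fell in 22Rv1 (median -1.02), 9 rose and 7 fell in C4-2B (median 0.19), and 11 rose and 3 fell in DU145 (median 0.21), and 2 were higher and 23 lower in 22Rv1. Of the immediate-early factors, 6 of 25 rose and 18 fell in 22Rv1 (median -0.63), 9 rose and 5 fell in C4-2B (median 0.06), and 10 rose and 10 fell in DU145 (median 0.15), and 4 were higher and 14 lower in 22Rv1. Of the p53 targets, 7 of 33 rose and 22 fell in 22Rv1 (median -0.41), 26 rose and 2 fell in C4-2B (median 0.53), and 8 rose and 16 fell in DU145 (median -0.12), and 4 were higher and 23 lower in 22Rv1. These p53 targets passed the test mostly as falls in 22Rv1 and mostly as rises in C4-2B.

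**Figure D5:**
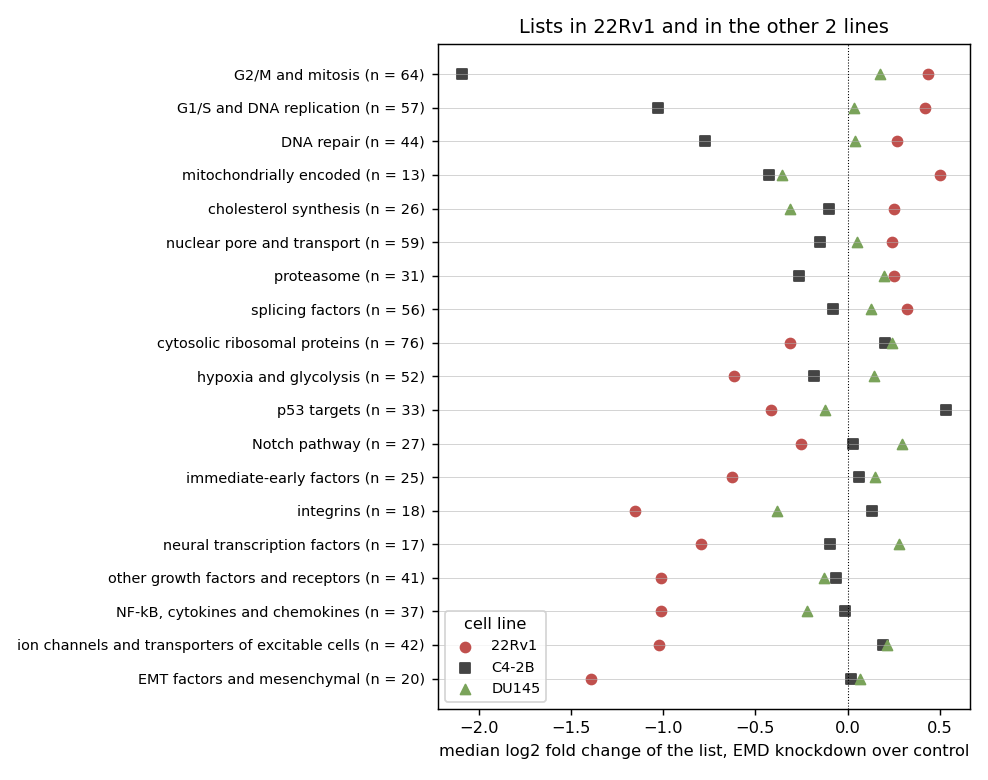
Median log2 fold change of EMD knockdown over control for 19 gene lists in 22Rv1 (circles), C4-2B (squares) and DU145 (triangles), from the fit of all 18 libraries. For G2/M genes 22Rv1 lies at 0.44 and C4-2B at -2.09. For the lists of growth factors, channels and epithelial-mesenchymal transition 22Rv1 lies furthest to the left.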

How the data were processed

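RNA was sequenced from 22Rv1 cells in 3 EMD knockdown and 3 control libraries. Alignment was with STAR to GRCh38 and gene assignment with RSEM 1.3.1, per the submitters' processing notes; the deposited values are RSEM expected counts given as whole numbers, with the annotation release, strand setting and rounding step not given in the sources used here. Without strand, overlapping antisense genes cannot be told apart.

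Genes were kept with edgeR 4.0.16 filterByExpr (minimum count 10, minimum total 15), which left out 9060 of 25716. The test was edgeR's quasi-likelihood F test with TMM scaling, R 4.3.3, with Benjamini-Hochberg adjustment. It was also run on simulated counts with few changed genes, balanced between rises and falls, and no trend with level. That run therefore cannot judge the scaling in these data, where changes were many and unequal in size. Gene identifiers were matched to symbols through GENCODE 29 and a table of gene names. Counting error is part of the spread between libraries and weighs most on genes of low level.

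Gene lists and members were chosen with earlier results of these data known. Genes were named by a rule: EMD, the 12 largest rises and falls, the 8 largest by CPM, the first 2 members and up to 6 strongest calls of each list with at least 5 CPM. VGF, SYP, HLA-C, B2M, HBA2, H2AC18 and the genes named as going against their list were chosen after their values were seen. Some genes that the rule names are not reported here. The alternatives were other scalings, filters, DESeq2 1.42.0 and limma-voom 3.58.1, each library left out, and a replicate block.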

Additional observations from a re-analysis of the deposited data

Results flagged for a closer look

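Each result here was picked out because the 22Rv1 effect of EMD knockdown differed from the mean of the C4-2B and DU145 effects by edgeR's quasi-likelihood test in 1 fit of all 18 libraries. Over 17152 genes the effect was higher in 22Rv1 for 4724 genes and lower for 5218 genes. IGFBP5 had a difference of -6.94 ± 0.26 (adjusted p = 8.68e-19), with log2 fold changes of -7.62 in 22Rv1, -1.87 in C4-2B and 0.52 in DU145. BMP7 had a difference of -6.41 ± 0.26 (adjusted p = 3.37e-16), with -3.47 in 22Rv1, 1.18 in C4-2B and 4.70 in DU145. HSPA6 had a difference of -6.36 ± 0.25 (adjusted p = 2.07e-20), with -3.15 in 22Rv1, 4.88 in C4-2B and 1.55 in DU145. KLF2 had a difference of 3.81 ± 0.15 (adjusted p = 2.18e-20), with 2.94 in 22Rv1, 0.43 in C4-2B and -2.17 in DU145. Some levels in the other lines were low, with control means of 0.175 CPM for HSPA6 in C4-2B and 0.502 CPM for BMP7 in DU145. In the same test the changes of IGFBP5 in DU145 (adjusted p = 0.119) and of KLF2 in C4-2B (adjusted p = 0.0964) were not called. Line, table and batch label coincide, so they cannot be told apart, and the DU145 columns are named shEMD where the labels describe siRNA.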

How the results depend on the processing

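The counts of 22Rv1 genes past the threshold, in all and in each direction, stayed within 1.5 times the reported ones under all 16 alternatives. Rises ranged from 4423 (upper quartile) to 5673 (no filter) and falls from 5492 (DESeq2) to 6793 (upper quartile). Leaving out each library in turn gave 5139 to 5435 rises and 5503 to 5659 falls. The count of genes that rose at least 2-fold became 1118, against 610, when the trend with level was removed by loess, while the falls of that size became 1895. The cause was not tested beyond the construction of that setting, which moves genes of low level upward. NPM1 took the value -0.0043 under upper-quartile scaling (adjusted p = 0.921). Of 176 named genes, 168 kept their call in every alternative that gave them a value; 14 had none in the fit of all 18 libraries. The exceptions were CDC25C, UBE2T, RPS12, RPS26, NPM1, FOXA1, HOXB13 and H2AC19. The correlations of same-numbered deviations were 0.0063, -0.15 and -0.27, so none was clearly positive. They cannot decide whether same-numbered libraries shared a culture or day, because deviations from a group mean also hold counting error. A fit with the replicate number as a block gave 5540 rises and 5606 falls. The counts of the difference between lines ranged from 4122 to 4945 higher and from 4879 to 5847 lower over its alternatives. Motif shares over all genes past the threshold, in place of those past 2-fold, are not read. A promoter was in the table for 72.9% of the fallen genes and 78.2% of the risen genes, so the classes were not covered alike. Depth limits genes below about 1 CPM, where 1 library holds few reads.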
